A study of Mus musculus with 4 samples.

Results

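The major histocompatibility (H2) region was taken as 33.5 to 40 Mb of mouse chromosome 17 (mm10), a window of 6.5 Mb that holds the H2 complex, the olfactory receptor genes beside it and a flank on each side. Its members were the single-nucleotide variants (SNVs) and short insertions or deletions (indels) that 2 variant callers, SpeedSeq and VarScan2, reported with the same position and alleles, where each caller counted 10 or more reads in all and 3 or more variant reads, the variant made up 10% or more of the reads (its allele fraction), and the SpeedSeq quality score was 20 or more. These are called confident. There were 129 such sites, 97 SNVs and 32 indels, among 60602 confident sites over the whole genome. The window holds 370 genes of the RefSeq table, 231 of them protein coding.

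The DNA came from c-Kit+ leukemia cells in the bone marrow of moribund mice on a C57BL/6 background, in 4 samples, all of the genotype E2-KO, which the series title gives as Nras-G12D with Ezh2 knocked out. Nras-G12D is an activating change in a small GTPase of the growth-factor pathway, and Ezh2 is the histone methyltransferase of Polycomb repressive complex 2. Whether cells other than the c-Kit+ ones stayed in the samples is not given in the labels, and neither are the ages of the animals or which animal gave which sample. The exome was captured with Agilent SureSelect XT Mouse All Exon probes. The samples form 1 group of 4, called replicates 1 to 4, and no control or matched normal sample entered, so no variant is called somatic, and what separates the samples may be technical. The files list variant positions only, so at a position with no call a reference base cannot be told apart from a lack of reads.

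The H2 complex encodes the class I proteins, which present peptides from inside the cell to CD8+ T cells, and the class II proteins, which present peptides taken up by specialised cells to CD4+ T cells. Between the class II and the D class I genes lies class III, with complement, heat shock and tumour necrosis factor genes. The class I genes arose by repeated duplication and many are alike in sequence, and the complex is among the most variable parts of the genome between mouse strains. C57BL/6 mice carry the H2 haplotype called b, and mm10 is itself the sequence of a C57BL/6 mouse.

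The promoters of 4 class I genes are printed from RefSeq (GRCm38.p6, the same coordinates as mm10) as examples, not as a measure of all class I genes. Each runs from 250 bases before to 50 bases after a transcript start, which need not be the outermost start of the gene. H2-Q6 and H2-Q7, which encode the non-classical Qa-2 antigens, carried confident SNVs in all 4 samples. H2-K1 and H2-D1, the classical class I genes of this strain, carried none in any sample. Capitals mark GGGGATTCC, the core of the kappa B element of the class I enhancer.
H2-Q6 promoter, chr17:35424600-35424899, plus strand: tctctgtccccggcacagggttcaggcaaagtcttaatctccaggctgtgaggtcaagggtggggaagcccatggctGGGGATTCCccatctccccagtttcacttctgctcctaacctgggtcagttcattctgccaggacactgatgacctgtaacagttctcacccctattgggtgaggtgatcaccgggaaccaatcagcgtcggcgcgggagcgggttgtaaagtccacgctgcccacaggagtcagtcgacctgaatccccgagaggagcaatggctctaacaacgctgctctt
H2-Q7 promoter, chr17:35438905-35439204, plus strand: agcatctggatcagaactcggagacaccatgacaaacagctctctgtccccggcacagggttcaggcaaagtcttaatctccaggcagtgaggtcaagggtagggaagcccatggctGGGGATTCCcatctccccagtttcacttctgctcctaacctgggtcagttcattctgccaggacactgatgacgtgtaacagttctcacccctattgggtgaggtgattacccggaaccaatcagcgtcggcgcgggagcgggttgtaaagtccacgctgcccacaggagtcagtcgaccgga
H2-K1 promoter, chr17:34000298-34000597, minus strand: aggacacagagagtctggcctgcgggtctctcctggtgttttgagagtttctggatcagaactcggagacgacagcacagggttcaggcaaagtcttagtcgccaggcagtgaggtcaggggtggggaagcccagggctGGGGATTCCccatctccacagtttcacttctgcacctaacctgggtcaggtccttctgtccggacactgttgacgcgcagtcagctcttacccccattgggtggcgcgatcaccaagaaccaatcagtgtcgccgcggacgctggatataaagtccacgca
H2-D1 promoter, chr17:35262844-35263143, plus strand: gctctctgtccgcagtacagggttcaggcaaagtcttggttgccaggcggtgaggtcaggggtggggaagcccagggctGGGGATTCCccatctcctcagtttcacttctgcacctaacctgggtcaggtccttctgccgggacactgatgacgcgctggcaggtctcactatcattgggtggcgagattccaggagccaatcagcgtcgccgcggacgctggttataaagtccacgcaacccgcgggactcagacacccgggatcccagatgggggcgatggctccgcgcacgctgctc

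Over 261 aligned positions the H2-Q6 and H2-Q7 promoters were identical at 254 (97.3%). The aligned parts of the H2-K1 and H2-D1 promoters were identical at 206 of 228 positions (90.4%). Pairs of a Q promoter with the H2-K1 or H2-D1 promoter were less alike, at 80.9% to 85.8%. Searched on both strands (GGGGATTCC or GGAATCCCC), the core was in 82 of 32851 mouse promoter windows of this length (0.2496%). In the class I list of 32 genes, 22 had a promoter window, with 24 windows in all. The core was in 5 of these 24 windows, which belong to 4 genes, the 4 printed above. Of 273 promoter windows of 223 genes in the region, 2 held a call of either caller at any quality and 0 held a confident one. No confident call thus fell in a printed promoter. The same share over all 32851 windows was not taken, and a window with no call may lack reads. These counts therefore do not describe the sequence of the promoters.

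Confident SNVs in the region numbered 88, 85, 76 and 77 in replicates 1 to 4 (mean 81.5 ± 5.92, SD, n = 4). Confident indels numbered 23, 21, 16 and 20 in the same order (mean 20 ± 2.94, SD, n = 4). The counts of the 4 samples lay close together, although over the whole genome the samples ranged from 21897 to 34753 confident SNVs, with replicate 4 lowest. Against the 397 windows of 6.5 Mb that the genome gave, whose median was 3 to 4 SNVs, the region stood above 79.3% to 83.1% of windows. The median depth at its confident SNVs was 144.5, 69, 41.5 and 55 reads in replicates 1 to 4, against 51, 46, 54 and 54 reads in the rest of the genome.

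These calls were not spread over the H2 genes. A stretch of 5570 bases at the far end of the window (39843083 to 39848652), in and beside the 18S ribosomal RNA-related pseudogene Rn18s-rs5, held 50, 51, 47 and 47 of the SNVs in replicates 1 to 4. A cluster of 342 bases (36231243 to 36231584), between genes and next to the pseudogene Gm18604, held 27, 25, 22 and 21. The remaining window of almost the full length, with nearly all genes of the H2 complex, held 11, 9, 7 and 9 SNVs, at 13 sites in all, or 1.08 to 1.69 SNVs per Mb. Without the 2 dense places the region stood above 56.7% to 64.99% of the genome's windows. The dense places, not the antigen-presenting genes, thus made up most of the members of a region named for its histocompatibility genes.

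**Figure D1:**
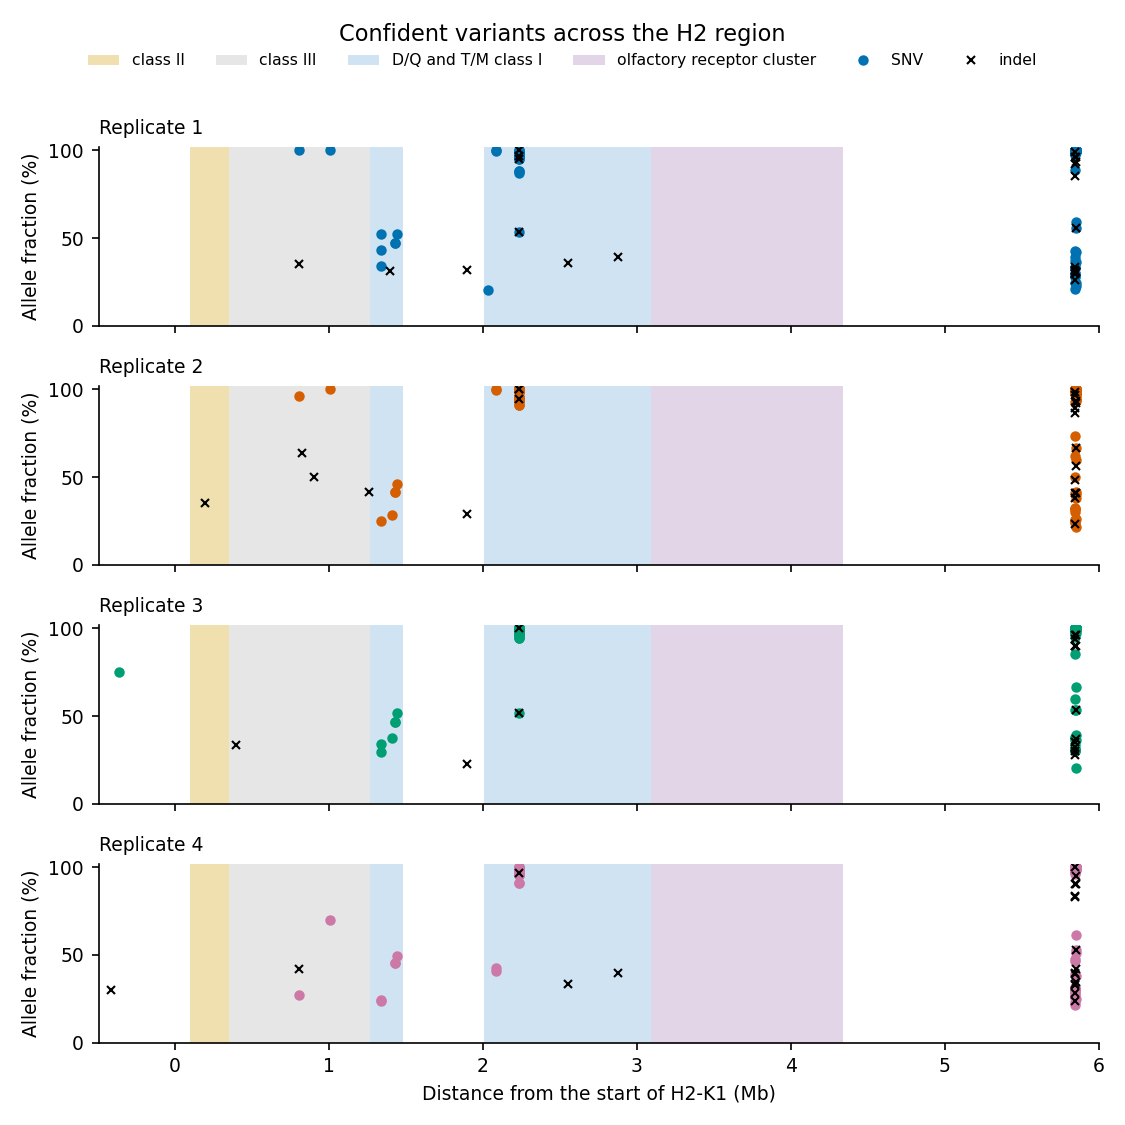
Allele fraction in percent (y axis) of each confident SNV (coloured dots) and indel (black crosses) against the distance in Mb from the start of H2-K1 (x axis), 1 panel per sample. Shading marks the sub-regions named above the panels. Calls pile up at 2 places in every sample, the cluster near Gm18604 and the ribosomal RNA stretch at the right edge, and the olfactory receptor cluster has none.

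The class I list had 32 genes, 24 of them protein coding, and 6 of the 32 held a confident variant in any sample. Over all 21900 protein-coding genes, a confident SNV in any sample lay in 17.6%, an indel in 14.5% and either in 23.8%; of the 24 protein-coding class I genes 3 (12.5%) held an SNV and 4 (16.7%) either, shares near that background. SNVs lay in H2-Q6, H2-Q7, H2-T23 and H2-Bl, and indels in H2-Q5 and H2-M11. In H2-Q6 the SNVs were A35425194G and A35425198C, where each is written as the reference base, the position on the plus strand of chromosome 17 and the variant base. They lie 4 bases apart, and SpeedSeq gave them as 1 joint call, printed here with the changed bases in capitals.
H2-Q6 reference, chr17:35425194-35425198, plus strand: AacaA
H2-Q6 variant: GacaC

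At this pair of H2-Q6 positions 114 of 241 reads carried the variant in replicate 1, 80 of 193 in replicate 2, 99 of 213 in replicate 3 and 95 of 209 in replicate 4. The allele fractions were 47.3% (exact Clopper-Pearson 95% interval 40.9 to 53.8), 41.5% (34.4 to 48.7), 46.5% (39.6 to 53.4) and 45.5% (38.6 to 52.5), and the 4 intervals overlap. The mean mapping quality of the variant reads, a score of how uniquely a read was placed that reached 60 in these files, was 42.8 to 45.5. That of the reference reads at the same positions was 58.8 to 59.6, so the variant reads were placed less uniquely.

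H2-Q7 carried C35440154G in 122 of 234, 94 of 205, 103 of 199 and 101 of 205 reads of replicates 1 to 4. Its fractions of 52.1%, 45.9%, 51.8% and 49.3% also had overlapping intervals, from 38.9 at the lowest bound to 58.9 at the highest. Here the variant reads had a mean mapping quality of 59.8 to 60.0, and so did the reference reads. Thus the same SNV stood near an even split of reads in each of the 4 samples, at depths of 199 to 234 reads. Intervals here reflect counting error alone, as reads of 1 molecule can be counted more than once.

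H2-T23 encodes Qa-1, a non-classical class I molecule seen by inhibitory receptors of natural killer cells. It held A36030879T in replicate 1 only, in 148 of 719 reads (20.6%, 17.7 to 23.7). The variant reads had a mean mapping quality of 24.9, against 58.9 for the reference reads. The fraction of 20.6% lies at the edge of what the callers list, since neither lists an SNV under 20% at a depth of 30 or more. The same position lies in the long non-coding RNA A930015D03Rik. For the other 3 replicates neither caller lists it.

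H2-Bl, a class I gene that RefSeq marks as a transcribed pseudogene, differed widely between samples. C36081324G was in 291 of 291 reads of replicate 1, 305 of 306 of replicate 2 and 187 of 457 of replicate 4 (40.9%, 36.4 to 45.6), and was not listed for replicate 3. A36081341G, in the same gene, was in 272 of 273, 288 of 288 and 205 of 481 reads (42.6%, 38.2 to 47.2) of the same 3 samples, and again not listed for replicate 3. Replicates 1 and 2 thus carried only the variant base in nearly every read, replicate 4 a mixture, and replicate 3 no listed variant. The mean mapping quality of these variant reads was 35.0 to 37.07. In replicate 4 the reference reads at the same positions had 55.8 and 57.5.

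The same order of samples held at SNVs in 2 class III genes that lie over 1 Mb away. Vars, which encodes the valine tRNA synthetase, had G35005381A in 39 of 39 reads of replicate 1, 24 of 24 of replicate 2 and 23 of 33 of replicate 4 (69.7%, 51.3 to 84.4), at a mean mapping quality of 60.0. Tnxa, a pseudogene of the tenascin X gene, had T34799480C in 27 of 27, 24 of 25 and 11 of 40 reads (27.5%, 14.6 to 43.9) of those samples. Neither is listed for replicate 3. In replicate 4 the intervals at Vars and Tnxa do not overlap each other, while the 2 in H2-Bl had overlapping intervals. The intervals reflect counting error and not the placing of reads. Whether the 4 SNVs shared 1 fraction in replicate 4 was not tested.

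Above the window, 5 positions within 10 Mb held a confident SNV, and 2 of them, in Cd2ap and Guca1a, had this order of samples. At position 42834132 in Cd2ap, which encodes an adaptor protein of the actin cytoskeleton, the variant was in 85 of 85 reads of replicate 1, 72 of 72 of replicate 2 and 58 of 123 of replicate 4, and is not listed for replicate 3. The other 3 did not: the variant in Capn11 was in 71.2% to 81.3% of reads in all 4 samples, that in Bicral in 55.4% and 42.3% of reads of replicates 1 and 2 alone, and that in Mdfi in replicate 1 alone. In the 10 Mb below the region replicates 1 to 4 had 426, 326, 3 and 311 confident SNVs, the last of them in replicates 1, 2 and 4 at 31854865, with median allele fractions of 94.1%, 50%, 60% and 49.0%. In the 10 Mb above it they had 4, 4, 0 and 2. Replicate 3 was thus low in the flank below the region as well, whereas its count within the region was 76. Its low count below depends on where the flank ends. The 1 Mb bin from 23 Mb, cut by that edge, held 286, 287, 265 and 238 SNVs in replicates 1 to 4.

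**Figure D2:**
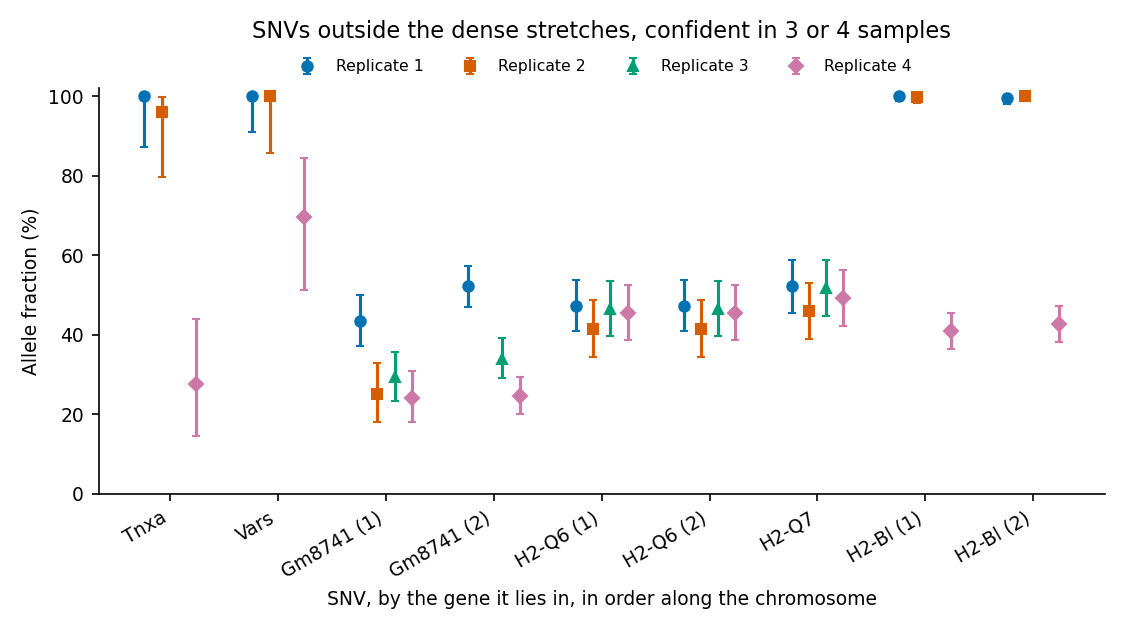
Allele fraction in percent (y axis) of the 9 SNVs outside the dense places that were confident in 3 or 4 samples, in their order along the chromosome (x axis, by gene). Points are samples, bars are exact Clopper-Pearson 95% intervals, and a missing point means no confident call. Tnxa, Vars and H2-Bl lie at 96.0% to 100% in replicates 1 and 2 and lower in replicate 4, while the H2-Q6 and H2-Q7 points of all samples lie between 41.5% and 52.1%.

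**Figure D3:**
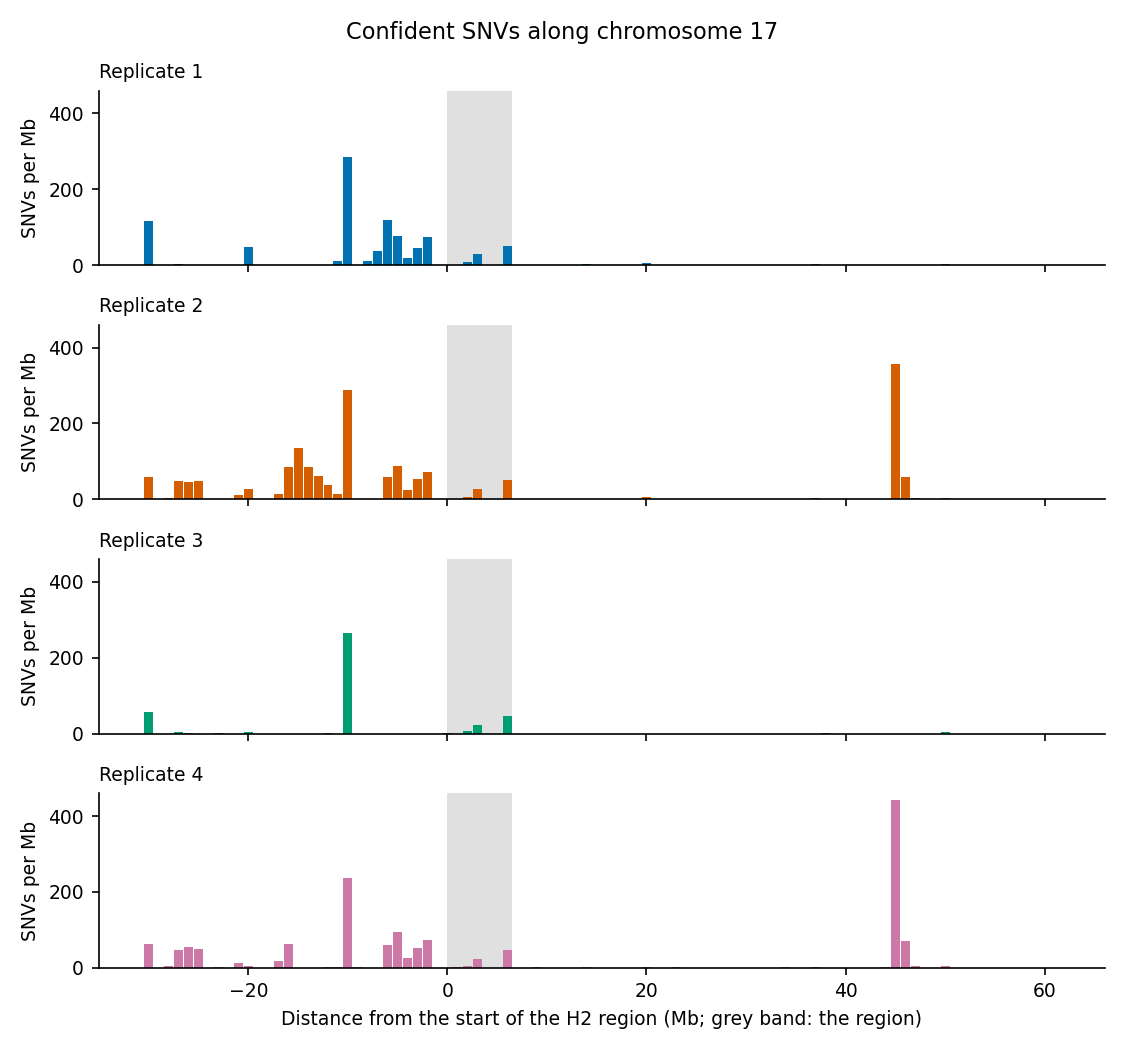
Confident SNVs per Mb (y axis) along chromosome 17, by distance in Mb from the start of the H2 region (x axis), 1 panel per sample, with the region in grey. Replicates 1, 2 and 4 have 311 to 426 SNVs within 10 Mb below the region and replicate 3 has 3. The bar at -10 Mb, a bin cut by the lower edge of those 10 Mb, holds 286, 287, 265 and 238 SNVs in replicates 1 to 4. Within the grey band all 4 samples have alike counts.

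The class II list had 10 genes, 9 of them protein coding, among them H2-Aa, H2-Ab1 and H2-Eb1, whose products form the classical class II dimers, and the H2-DM and H2-O genes, whose products load and edit their peptides. None of the 10 held a confident SNV or indel in any of the 4 samples, and 3 held a call of either caller at any quality. Against the background of 23.8% of protein-coding genes with either, lists of this size cannot show a lack of variants, and the counts of the other short lists are read likewise. In the antigen-processing list (Tap1, Tap2, Tapbp, Psmb8 and Psmb9) 0 of 5 genes held an SNV and 1 an indel. That was Tap1, a subunit of the transporter that brings peptides to class I molecules. In replicate 2 a deletion of 1 base in a run of C was in 7 of 20 reads (35.0%, 15.4 to 59.2), all on 1 strand. The deletion is not listed for the other replicates. It is shown because the indels in H2 genes lay in such repeats, and the deleted base is in capitals.
Tap1 reference, chr17:34189625-34189643, plus strand: gCcccccccccccaaacat
Tap1 variant: gcccccccccccaaacat

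Of the complement and heat shock list (C2, Cfb, C4a, C4b, Hspa1a, Hspa1b and Hspa1l), 0 of 7 genes held an SNV and 1 an indel. In C4a, a copy of the complement C4 gene that RefSeq marks as a transcribed pseudogene, a 2-base deletion was in 7 of 11 reads of replicate 2 (63.6%, 30.8 to 89.1). The tumour necrosis factor list (Tnf, Lta, Ltb, Lst1, Aif1 and Nfkbil1) had 0 of 6 genes with a confident variant. Of the 10 other class III genes listed, 0 had an SNV and 1 an indel, and of 7 chromatin and transcription genes of the region 0 had either. Ddx39b, an RNA helicase gene, was the 1 with an indel, in 5 of 12 reads of replicate 2.

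Among the 58 olfactory receptor genes, which encode the odour receptors of the nasal epithelium, 0 held a confident variant. The olfactory receptor cluster, 1251 kb long with 49 protein-coding genes, had 20, 17, 3 and 2 listed calls in replicates 1 to 4, and 0 of these had a depth of 10 or more. The lack of confident calls there therefore says nothing about the sequence of these genes, only that no variant position reached the depth required.

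Outside the 2 dense places the indels numbered 5, 5, 2 and 4 in replicates 1 to 4, at 12 sites, of which 11 were deletions. All 12 lay in repeats of at least 8 bases, from 12 to 50 bases long, and 0 of the 12 were confident in all 4 samples. The same shares were not taken over the 7841 indel sites of the whole genome. These counts are therefore not read as particular to the region. H2-M11, a class I gene of the M group, had a 1-base deletion in 16 of 45 reads of replicate 1 (35.6%, 21.9 to 51.2) and 12 of 36 of replicate 4 (33.3%, 18.6 to 51.0).
H2-M11 reference, chr17:36548719-36548737, plus strand: tCcccccccccccccagat
H2-M11 variant: tcccccccccccccagat

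The class I pseudogene H2-Q5 had a 2-base deletion in 5 of 16 reads of replicate 1. At 1 position in Dhx16, an RNA helicase gene, 2 alleles were met: the run of T was 1 base shorter in 6 of 19 reads of replicate 1 and 8 of 35 of replicate 3, and 1 base longer in 7 of 24 of replicate 2. Trim10 had a 1-base deletion in 9 of 23 reads of replicate 1 and 12 of 30 of replicate 4, and Cyp21a1, the steroid 21-hydroxylase gene, in 6 of 17 and 8 of 19 of the same 2 samples. Myo1f and Zbtb12 had confident indels in 1 sample each. Some of these deletions were also listed in further samples without meeting the rule. That of Cyp21a1 was listed in replicate 2, in 5 of 17 reads by SpeedSeq and 6 of 18 by VarScan2. That of Zbtb12 was in 3 of 11 SpeedSeq reads of replicate 1, and that of Trim10 was listed in replicates 2 and 3. Confident calls at the 12 sites had allele fractions from 22.9% to 63.6%, at depths of 11 to 45 reads.

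Per gene, the region held few confident SNVs. A confident SNV lay in the gene body of 4, 3, 3 and 3 of the 231 protein-coding genes in replicates 1 to 4 (1.73%, 1.30%, 1.30% and 1.30%). In the rest of the genome the shares were 12.1%, 11.7%, 12.0% and 8.43% of 21669 genes, and over all 21900 protein-coding genes the background was 12.0%, 11.6%, 11.9% and 8.36%. The difference was -9.64 ± 1.68 percentage points (mean ± SD, n = 4; lower in 4 of 4 samples; exact two-sided sign-flip permutation test, p = 0.125, adjusted 0.15). With 4 samples and 16 sign patterns, 0.125 is the smallest p this test can give, so none of the 6 comparisons tested this way can pass 0.05; adjusted values are Benjamini-Hochberg over these 6. The genes were H2-Q6 and H2-Q7 in every sample, Vars in replicates 1, 2 and 4, and H2-T23 in replicate 1. In replicate 3 Zfp414, a zinc finger gene, also counted, with T33630171G in 12 of 16 reads, the variant reads all on 1 strand.

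Pseudogenes of the region held SNVs too. In the D and Q class I stretch (35263094 to 35474563) the pseudogene Gm8741 held T35336214C in all 4 samples, in 103 of 237, 36 of 144, 65 of 222 and 45 of 187 reads, at a mean mapping quality of 22.0 to 23.1. A second SNV there, T35336314C, was in 195 of 374, 125 of 368 and 82 of 335 reads of replicates 1, 3 and 4; in replicate 2 only SpeedSeq passed it, with 56 of 270 reads. C35336158T was confident in replicate 1 alone, in 47 of 137 reads. Replicate 1 had the highest fraction at both shared sites (43.5% and 52.1%), and its intervals did not overlap those of the others.

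The callers differed most in this stretch. VarScan2 alone passed 31, 31, 32 and 30 SNVs there in replicates 1 to 4, of which SpeedSeq listed 6, 5, 6 and 5 (19.4%, 16.1%, 18.8% and 16.7%). Over the region SpeedSeq listed 70.3%, 69.4%, 63.6% and 68.8% of the VarScan2 SNVs, against 81.8%, 84.2%, 85.7% and 83.2% in the rest of the genome. Most SNVs with no SpeedSeq entry lay in the pseudogenes Gm8750 and Gm8752. In Gm8750 there were 13, 12, 10 and 13 of them, at median VarScan2 allele fractions of 39.6%, 33.2%, 35.8% and 36.7%, and in Gm8752 there were 11, 14, 13 and 12, at 33.9%, 35.3%, 36.5% and 33.9%. Each pseudogene had 14 VarScan2 SNV sites, and in each 11 of the 14 were met in all 4 samples. The 1 SNV of Gm8750 that both callers passed, T35403376G, was in 6 of 21 reads of replicate 2 and 6 of 16 of replicate 3 by SpeedSeq. These variant reads all lay on 1 strand. VarScan2 counted 60 of 194 and 67 of 206 reads there, so the callers differed widely in depth.

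**Figure D4:**
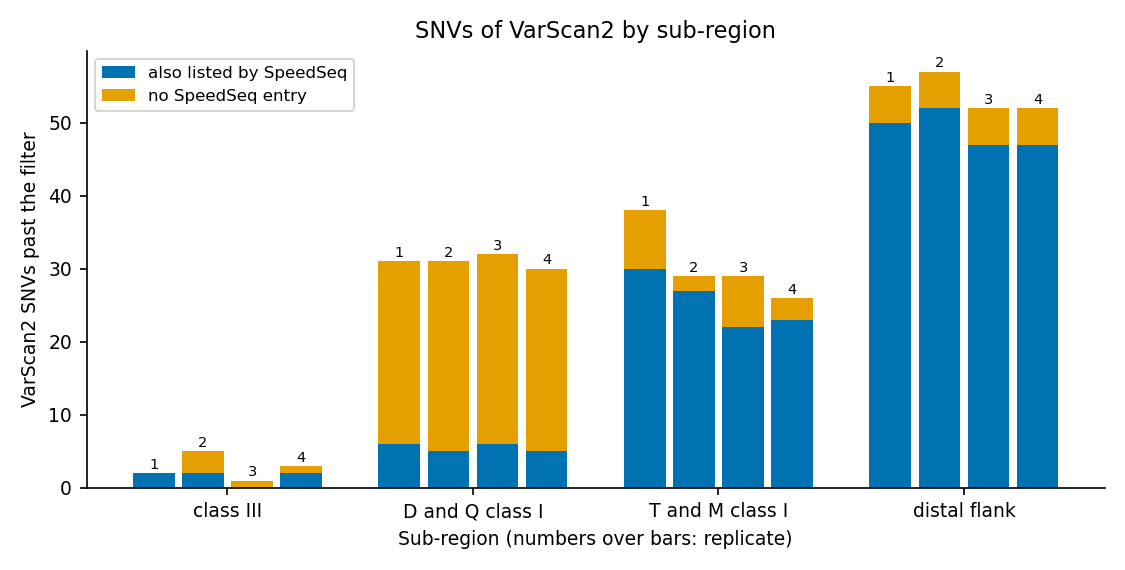
Number of VarScan2 SNVs past the filter (y axis) in 4 sub-regions (x axis), split into those that SpeedSeq also lists at any quality (blue) and those it does not (orange), 1 bar per sample with the replicate number above it. In the D and Q class I stretch 25 or 26 of 30 to 32 SNVs have no SpeedSeq entry in each sample, while in the distal flank 47 to 52 of 52 to 57 have one.

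In the other direction, VarScan2 listed 98.9%, 97.7%, 95% and 91.7% of the region's SpeedSeq SNVs in replicates 1 to 4, against 94.7%, 93.4%, 95.9% and 86.7% in the rest of the genome. The difference was 3.15 ± 2.74 percentage points (mean ± SD, n = 4; higher in 3 of 4 samples; two-sided exact permutation of signs, p = 0.25, adjusted 0.25). Without the 2 dense places it turned to -4.70 percentage points (p = 0.5 by the same exact test), and with the region ended before the olfactory receptor cluster it was 1.43 (p = 0.625).

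Reads behind the class I SNVs were placed less uniquely and lay deeper than those of the other SNVs in the region. Median mapping quality of variant reads was 40.3, 42.8, 45.3 and 45.5 at class I SNVs in replicates 1 to 4, against 60.0, 60.0, 59.8 and 60.0 in the rest of the region, a difference of -16.5 ± 2.51 (lower in 4 of 4 samples, n = 4; exact sign-flip permutation test, p = 0.125, adjusted 0.15). Median depth was 257, 205, 213 and 209 reads at class I SNVs, against 139, 68, 41 and 55, a difference of 145 ± 23.1 reads (higher in 4 of 4 samples; same exact test, p = 0.125, adjusted 0.15). The class I medians rest on 3 to 6 SNVs a sample. Without splitting joint calls the depth difference was 227 reads, and among SNVs with a mapping quality of 50 or more the mapping quality difference was -0.090. Without the dense places the mapping quality was 13.5 higher at class I SNVs (p = 0.125, exact), the rest of the region then holding only the SNVs in Gm8741, Gm8750, Tnxa, Vars and Zfp414.

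The ribosomal RNA stretch is described next as the largest source of members. The 18S ribosomal RNA is a structural part of the small ribosomal subunit, and mammals carry its genes in many tandem copies. Of 55 SNV sites in the stretch, 40 were confident in all 4 samples, 29 of them at 65% or more in every sample, a range called upper here, 8 below it in every sample and 3 in different ranges. By VarScan2 read counts 31 of the 40 were upper, 8 lower and 1 in different ranges, and over the 4 samples 6 of 195 confident SNV calls of the stretch changed range between the callers. Rn18s-rs5 itself (39846354 to 39848202) held 6 SNV sites, all upper in every sample where they were confident. An example is C39848018T, in 183 of 185, 77 of 79, 42 of 42 and 55 of 55 reads of replicates 1 to 4. At 3 of the 6 Rn18s-rs5 sites, T39847426C, A39847435G and A39847458G, every read of replicate 4 carried the variant (17, 19 and 26 reads), although these did not meet the rule there.

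Other positions in the stretch had mixtures, some of them steady over the samples. T39848652C, in the long non-coding RNA AY036118, was in 101 of 170, 42 of 70, 34 of 51 and 24 of 39 reads (59.4%, 60.0%, 66.7% and 61.5%). C39843540G, between genes, was in 48 of 169, 20 of 79, 9 of 30 and 17 of 55 reads (28.4%, 25.3%, 30.0% and 30.9%). At these sites VarScan2 gave 56.2% to 65.9% for the first and 23.6% to 30.6% for the second. Over the stretch the lower-range medians were 32.8%, 32.0%, 36.2% and 30.7%. Depth ranged from 43 to 684 reads in replicate 1 and from 11 to 522 in replicate 3.

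**Figure D5:**
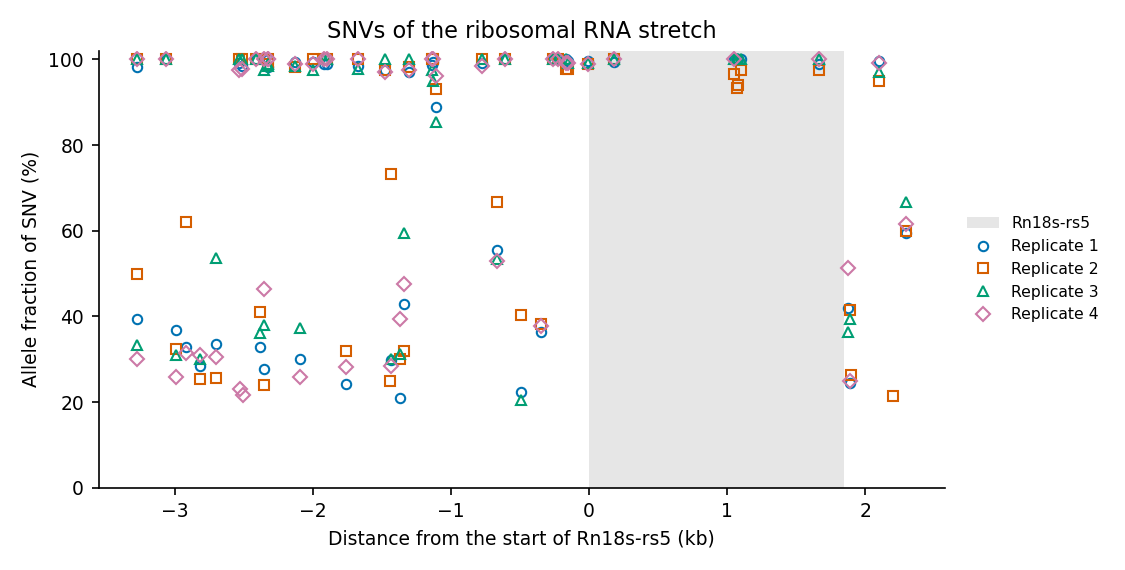
Allele fraction in percent (y axis) of confident SNVs in the ribosomal RNA stretch against the distance in kb from the start of Rn18s-rs5 (x axis); the grey band is Rn18s-rs5 and symbols are samples. Fractions are those of SpeedSeq. A row near 100% runs along the whole stretch in all 4 samples, and a second group of points lies mostly between 20% and 60% outside the grey band.

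Of 16 indel sites in the stretch 10 were confident in all 4 samples. The sequences below are the longest deletion and insertion between genes and the longest deletion in Rn18s-rs5, with the lost or gained bases in capitals. The first deletion removes 1 of 2 adjacent copies of an 8-base unit between genes, in 93 of 94, 53 of 54, 15 of 16 and 27 of 27 reads of replicates 1 to 4 by SpeedSeq, and in 67.6% to 86.7% of reads by VarScan2.
Stretch deletion, reference, chr17:39843582-39843599, plus strand: aCGCCTGTGcgcctgtgc
Stretch deletion, variant: acgcctgtgc

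In Rn18s-rs5 a 6-base deletion within a run of G was in 101 of 105, 56 of 60, 18 of 20 and 20 of 21 reads by SpeedSeq, and in 78.7% to 85% by VarScan2.
Rn18s-rs5 reference, chr17:39846554-39846574, plus strand: cGGGGGGggggggggatgcgt
Rn18s-rs5 variant: cggggggggatgcgt

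Just before Rn18s-rs5 2 different insertions were met at 1 position. The 3-base one was in 132 of 427, 44 of 204, 86 of 232 and 53 of 194 reads of replicates 1 to 4, and the 6-base one in 126 of 427, 83 of 204, 65 of 232 and 67 of 194. The 3-base insertion was the confident one in replicates 1 and 3 and the 6-base one in replicates 2 and 4, while SpeedSeq listed both in every sample. VarScan2 gave the confident one at 55.7% to 64.1%, above the share that SpeedSeq gave that insertion alone in every sample. The callers thus put it at different fractions. Whether VarScan2 counted reads of both insertions together was not tested.
Reference, chr17:39846281-39846296, plus strand: gcctcctcctctctcg
3-base insertion: gCCTcctcctcctctctcg
6-base insertion: gCCGCCTcctcctcctctctcg

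In the cluster near Gm18604, 29 SNV sites lay within 342 bases, 18 of them confident in all 4 samples and all 18 upper in each. The median allele fraction was 97.3%, 98.6%, 100% and 97.4% in replicates 1 to 4, at median depths of 126, 65, 43 and 55 reads and a median mapping quality of 57.1 to 58.2. A 14-base deletion there was in 59 of 62, 33 of 35, 30 of 30 and 27 of 28 reads by SpeedSeq. VarScan2 gave 57 of 89, 29 of 44, 23 of 35 and 20 of 34 reads (64.0%, 65.9%, 65.7% and 58.8%), so the callers put this deletion at different fractions. It is printed as the longest change of the region, with the lost bases in capitals.
Cluster deletion, reference, chr17:36231359-36231374, plus strand: cACCCCCCACCCCGTc
Cluster deletion, variant: cc

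Through these 2 places the allele fractions of the region differed from those of the genome. Upper-range SNVs made up 70.5%, 74.1%, 72.4% and 66.2% of the region's SNVs in replicates 1 to 4, against 24.9%, 24.3%, 27.5% and 52.7% in the rest of the genome. The difference was 38.5 ± 16.7 percentage points (mean ± SD, n = 4; higher in 4 of 4 samples; exact two-sided sign-flip permutation test, p = 0.125, adjusted 0.15). Replicate 4 had the smallest difference, 13.6 points, against 44.9 to 49.8 in the other replicates. Without the 2 dense places the difference was -5.79 ± 27.7 percentage points (p = 0.75, exact), so its direction rests on them. With VarScan2 alone it was 23.6 ± 13.7 percentage points (p = 0.125, exact).

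Among SNVs at a depth of 30 or more, the upper-range median in the region was 98.7%, 99.3%, 99.2% and 98.9%, against 100%, 100%, 80% and 100% in the rest of the genome. Replicate 3 was therefore low over the rest of the genome but not in the region. The lower-range medians were 35.3%, 32.5%, 36.2% and 30.9% in the region, against 44.6%, 45.7%, 37.6% and 44.7% in the rest of the genome. The lower-range medians were lower in the region in all 4 samples, least so in replicate 3. These medians were compared without a test.

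Sharing between samples was common in the region, mainly in the 2 dense places. Of its 97 SNV sites 62 were confident in all 4 samples (63.9%, exact Clopper-Pearson 95% interval 53.5 to 73.4), 18 in 3, 7 in 2 and 10 in 1. Outside the dense places 4 of 13 were, namely the pair in H2-Q6 and 1 each in H2-Q7 and Gm8741. Between any 2 samples 73.1% to 88.0% of the SNVs met in either were met in both, against 39.1% to 56.8% in the rest of the genome. The shared SNVs were in the same range, upper or lower, in 93.1% to 98.6% of cases, against 64.3% to 83.3% in the rest of the genome. Of the 97 sites, 55 lay in the ribosomal RNA stretch and 29 in the cluster near Gm18604. The pair shares were not taken without these 2 places, so they do not describe the H2 genes. Pairs share samples, so these values are a description.

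By type of change, T-to-C made up 41.2% of the 97 SNV sites, C-to-G 18.6%, C-to-T 18.6% and T-to-G 15.5%, each counted together with its complement. In the rest of the genome the shares were 34.1%, 7.19%, 34.8% and 8.29%. Transitions were 60.2%, 61.2%, 55.3% and 58.4% of the region's SNVs in replicates 1 to 4, against 68.6%, 69.04%, 70.4% and 68.7% in the rest of the genome. The difference was -10.4 ± 3.30 percentage points (mean ± SD, n = 4; lower in 4 of 4 samples; exact two-sided sign-flip permutation test, p = 0.125, adjusted 0.15). The cluster near Gm18604 had C-to-G changes at 8 of its 29 sites, and the ribosomal RNA stretch at 8 of its 55.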

How the data were processed

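Each sample had a SpeedSeq file, made per the file headers by freeBayes v0.9.21 on UCSC mm10, each sample alone, and VarScan2 tables of SNVs and of indels. Builds named in the submitters' processing notes are mm10 and GRCm38. Aligner, handling of duplicates and VarScan2 release were not given in the sources used here. Depth and variant reads are whole-read counts per the file headers. Per the file headers, the SpeedSeq quality score is Phred-scaled. The VarScan2 frequency is a percent, per the file headers, and its p-value column, deposited by the authors, was not used. Tested on the files, VarScan2 lists nothing under a coverage of 8, 3 variant reads or 20%, and at a depth of 30 or more SpeedSeq lists no SNV under 20%, so the minimum of 10% removed nothing at such depths and smaller fractions cannot be seen.

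SpeedSeq calls that join several changes were split into single changes by their alignment strings. Allele fractions are those of SpeedSeq unless VarScan2 is named. Genes came from RefSeq (GRCm38.p6) as starts and ends without exons, so effects on proteins were not determined. Sub-regions were bounded by named genes. Replicates were numbered in accession order, and nothing says whether they share litters or batches. Named were all class I, class II, antigen-processing, complement and tumour necrosis factor genes with a confident variant, and up to 5 olfactory receptors and 5 other genes by confident SNV sites, with ties kept; genes given with indels alone outside these lists, and positions singled out in the dense places, were chosen after their values were seen. The region and gene lists were chosen with earlier results of these data known. Shares have exact Clopper-Pearson 95% intervals. Differences between the region and the rest of the genome were tested by exact sign-flip permutation over the 4 samples with Benjamini-Hochberg adjustment over 6 tests. The scripts were tested on simulated calls. Alternatives were VarScan2 alone, stricter minimums, another end of the region, each sample left out and the dense places left out. Python 3.11.15, pandas 2.3.3, numpy 2.4.6, scipy 1.17.1 and Biopython 1.88 were used.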

Additional observations from a re-analysis of the deposited data

Results flagged for a closer look

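Of 29 per-sample quantities examined for a sample far from the other 3, 2 stood apart, and chance flags about 1 in 20. Both belong to replicate 3 in the rest of the genome, outside the H2 region: its upper-range median allele fraction was 80%, against 100% in each other sample, and its lower-range median was 37.6%, against 44.6% to 45.7%. Within the region the corresponding values of replicate 3, 99.2% and 36.2%, did not stand apart. In data outside the main measurement, the SNVs of VarScan2 with no SpeedSeq entry numbered up to 13 in Gm8750 (10 to 13 over the samples) and up to 14 in Gm8752 (11 to 14), above the 3 counts that a count of 0 allows in every sample.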

How the results depend on the processing

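The samples form 1 group, so no pairing of samples between groups was possible. The tests were paired within each sample, with the region set against the rest of the genome, or class I SNVs against the rest of the region. Of 121 recomputed values, 107 kept their direction or, for counts and the share of shared sites, stayed within a set margin of the reported value. Of the others 11 moved and 3 reversed. The alternatives without the dense places and without splitting joint calls were chosen after seeing the data. With VarScan2 alone the mean number of indels was 32.8. With the region ended before the olfactory receptor cluster, and likewise without the ribosomal RNA stretch, the means were 32.8 SNVs and 6.5 indels, and 52.4% of SNV sites were confident in all samples. Without the stretch and the cluster near Gm18604 the means were 9 SNVs and 4 indels, that share was 30.8%, and 3 differences reversed: the upper-range share to -5.79 percentage points, the share of SpeedSeq SNVs listed by VarScan2 to -4.70, and the class I mapping quality to 13.5. Among the 107, sizes still changed. The mean number of SNVs was 121.25 with VarScan2 alone and 61 without splitting joint calls, against 81.5 in the main run. The class I mapping quality difference was -0.090 with a mapping quality of at least 50, and class I depth 227 reads without splitting joint calls. The upper-range difference was 23.6 points with VarScan2 alone. The share of SpeedSeq SNVs listed by VarScan2 differed by 1.43 points with the region ended before the olfactory receptor cluster. That difference was 1.44 without the ribosomal RNA stretch and 1.96 without splitting. The alternative without both dense places removes most of the region's SNVs. Leaving out each sample in turn gave 79.3 to 83.3 SNVs, 19.0 to 21.3 indels, upper-range differences of 34.7 to 46.7 percentage points and shares of sites in all remaining samples of 65.3% to 76.6%, the highest without replicate 3. The gene share and transition share stayed lower in the region, and class I depth higher, in each alternative run. No variant position in the olfactory receptor cluster reached a depth of 10, and variants under 20% cannot be seen.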
